A study of Bos taurus with 8 samples.

Results

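ATF4, 4 genes that ATF4 is known to switch on or to work with (DDIT3, TRIB3, ASNS, CHAC1), the 3 enzymes of serine synthesis (PHGDH, PSAT1, PSPH) and the 2 mitochondrial enzymes that pass the carbon of serine to folate (SHMT2, MTHFD2) were followed in the mammary gland of 8 lactating Holstein Friesian dairy cows. The genes were chosen by name, with earlier results of these arrays known, and every probe that the array design or its RefSeq accession assigns to one of the 10 genes was taken. This gave 20 of the 43653 probes, and 19 of them were among the 29867 probes bright enough to test. RNA came from part of the udder of 4 cows of high milk yield (11097 kg per lactation on average) and 4 of low yield (6956 kg). Each cow of high yield was set against a cow of low yield in the same lactation on 2 arrays with the Cy3 and Cy5 dyes exchanged, so that the replicate is the cow pair (n = 4). Pairs 1 and 2 were in lactation II and lay on one slide, and pairs 3 and 4 were in lactation IV and lay on the other, so lactation and slide cannot be told apart. All cows were described as healthy and of one breed, and no treatment, age or stage of lactation is used here. A log2 ratio above 0 means more signal in the high-yield cow, and each step of 1 is a factor of 2.

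ATF4 is a transcription factor whose messenger RNA is translated when the initiation factor eIF2 is phosphorylated, as happens when amino acids run short or unfolded protein accumulates in the endoplasmic reticulum. It then raises genes for amino acid synthesis, amino acid uptake and tRNA charging, and, with its partner DDIT3 (CHOP), genes that damp the response or lead to cell death. Serine is made from the glycolytic intermediate 3-phosphoglycerate by PHGDH, PSAT1 and PSPH in turn, and SHMT2 and MTHFD2 then carry its carbon into the mitochondrial folate cycle. The lactating gland uses large amounts of amino acids for milk protein.

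The probes are strands of 60 bases, and the first 30 bases of those on which the comparisons turn are shown as the array files give them, 5′ to 3′, with no base singled out in capitals. ATF4 and PHGDH are shown as the head of the response and of serine synthesis, ASNS and PSPH because both their probes carried large ratios, SHMT2 because its probes disagreed, and TRIB3 because probe 3 was too dim to test.
ATF4 probe 1: gggtagtcaggagtatgtgcgcttgtatat
TRIB3 probe 1: tggaaagtctcaggttcaggaccctacatt
TRIB3 probe 3: tggagctggatgatgacctagacactgagt
ASNS probe 1: taggattttacaggactatattgaacatca
ASNS probe 2: tttgacaatgccgttaagaaacgtttgatg
PHGDH probe 1: tgcttgtgtctcctctgactcctatctttc
PSPH probe 1: acaccttcactattgggaatgtggattagg
PSPH probe 2: aagaagaaggaattgatgagctggccaaat
SHMT2 probe 1: agaggaaggggtgggtaggcacccttcttt
SHMT2 probe 3: tatcttcttcgagtctatgccttataagct
Probes are numbered within a gene from the brightest to the dimmest, and probe 1 stands for the gene unless another is named. Positions are those of the array files, in build HGSC Btau_3.1, and whether a probe lies in a coding exon or a UTR was not analysed here.

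Between 22027 and 42482 probes were well above background per dye channel, and no spot was saturated. The low-yield cow of pair 1 stood apart before any of the 10 genes was considered. The 9 genes of the milk secretory epithelium (caseins, LALBA, PAEP, GLYCAM1, BTN1A1, XDH) had a mean level of 11.93 in that cow and 16.40 to 19.0 in the other 7, as log2 intensity. LALBA, which encodes alpha-lactalbumin, stood at 9.76 in that cow and at 16.1 to 19.63 in the others. In RNA from whole tissue, fewer cells of a type and less RNA per cell cannot be told apart.

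In lactation II the high-yield cows carried more of these transcripts than their low-yield partners, and in lactation IV they carried less. Of the 10 genes, 9 were higher in the high-yield cow of both lactation II pairs and lower in that of both lactation IV pairs. Among all 12353 named genes tested, 8.83% had that pattern. The exception was CHAC1, whose ratio was above 0 in pair 3. The median ratio of the 10 genes was 1.26 and 1.15 in the lactation II pairs and −0.90 and −1.01 in the lactation IV pairs, whereas the median of all named genes lay between −0.00 and 0.05 in each pair. With each array centred on its median in place of a loess fit, 6 of 10 genes had the pattern. In pair 1 that centring put the median of all named genes at −0.76, and DDIT3, PHGDH and SHMT2 at −0.09, −0.55 and −0.61, which is below 0 and above that median.

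**Figure D1:**
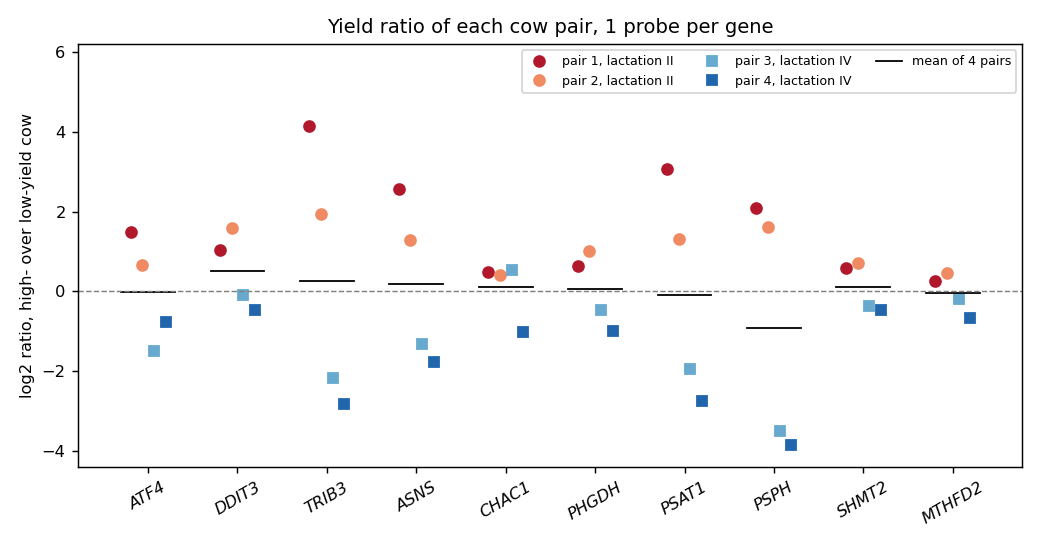
Log2 ratio of the high- over the low-yield cow (vertical axis) for the brightest probe of each of the 10 genes (horizontal axis). Circles are the 2 pairs of lactation II, squares the 2 pairs of lactation IV, and bars the mean of the 4 pairs. For 9 genes all circles lie above 0 and all squares below it, and the CHAC1 square of pair 3 lies at 0.54.

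None of the 10 genes had the same sign in all 4 pairs with its brightest probe, against 9.62% of all named genes that were higher in 4 of 4 pairs and 7.64% that were lower in 4 of 4. The mean over the 4 pairs was accordingly near 0 for most, from −0.91 for PSPH to 0.52 for DDIT3. No gene passed the test for yield (limma with Benjamini-Hochberg adjustment over all 29867 probes, adjusted p 0.750 to 0.993 for the 10 genes). Over the whole array 0% of probes passed that test, and 1926 had an unadjusted p under 0.05. The test of the difference between lactations also called 0% of probes, with 2287 at an unadjusted p under 0.05, and the adjusted p of the 10 genes ran from 0.311 to 0.761. Unadjusted, 8 of the 10 genes were under 0.05, as were 9.17% of all named genes. Because the genes were chosen with their ratios known, these counts describe them and support nothing. With 2 pairs a lactation the smallest two-sided p of an exact permutation test would be 0.333, and with 4 pairs against 0 it would be 0.125.

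Without pair 2 the lactation difference was −6.63 for TRIB3 probe 1, −5.76 for PSPH probe 1 and −4.09 for PSPH probe 2. With all 4 pairs it was −5.53, −5.52 and −4.53. In that fit pair 1 alone stands for lactation II and is assumed to vary as the lactation IV pairs do, and pair 1 holds the cow with low milk protein transcripts. Calls of a fit with 1 pair in a lactation are therefore not read for single genes.

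ATF4, the central factor, was measured by 3 probes close together on chromosome 5 that gave like ratios. Probe 1 (chr5:118120352-118120411, plus strand) had log2 ratios of 1.48 and 0.67 in the lactation II pairs and −1.49 and −0.77 in the lactation IV pairs, with a mean of −0.03 ± 1.35 (SD, n = 4). Probe 2 (chr5:118119580-118119639) gave 1.28, 0.72, −1.53 and −1.0 in pairs 1 to 4. The third probe (chr5:118119912-118119971) gave 1.31, 0.51, −1.09 and −0.76. All 3 probes of ATF4 were thus above 0 in both lactation II pairs and below 0 in both lactation IV pairs. In pair 2 this rested on the array with the high-yield cow in Cy5, where the ratios of the 3 probes were 1.33, 1.45 and 1.05, while the dye-swapped array gave 0.02, −0.01 and −0.03. By cow, the level of ATF4 was 16.28, 15.89, 14.85 and 14.71 in the high-yield cows (pairs 1 to 4) and 14.80, 15.22, 16.34 and 15.48 in the low-yield cows. The high-yield cows of lactation II and the low-yield cows of lactation IV were thus the 4 highest, and the yield groups overlapped. Levels are log2 intensities rebuilt from the ratio and the mean brightness of each array after scaling, so the order of cows on different slides rests on that scaling.

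DDIT3, a partner of ATF4 in the stress response, was higher in the high-yield cow by a wide margin in lactation II and near equal in lactation IV. Probe 1 (chr5:60419476-60419535) had ratios of 1.04 and 1.60 in lactation II and −0.09 and −0.47 in lactation IV, with a mean of 0.52 ± 0.96 (SD, n = 4). Probe 2 (chr5:60419092-60419151) had 1.37, 1.77, 0.07 and 0.17 in pairs 1 to 4, the only one of the 19 tested probes with the same sign in all pairs, and its mean of 0.84 ± 0.85 did not pass the test (limma adjusted p = 0.730). The 2 probes therefore disagree on the sign in lactation IV, where both lie near 0. The level of DDIT3 was 12.39 and 12.21 in the high-yield cows of lactation II and 10.61 to 11.51 in the other 6 cows.

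TRIB3 encodes a pseudokinase that is induced by ATF4 and DDIT3 and restrains them, and it had the widest spread of ratios among the 10 genes. Probe 1 (chr13:61470530-61470589, minus strand) had log2 ratios of 4.13 and 1.94 in the lactation II pairs and −2.18 and −2.81 in the lactation IV pairs, with a mean of 0.27 ± 3.33 (SD, n = 4). The level of TRIB3 was 12.85, 12.57, 9.65 and 9.96 in the high-yield cows (pairs 1 to 4) and 8.72, 10.64, 11.83 and 12.77 in the low-yield cows. In each yield group 2 cows were thus high and 2 low, and the high ones were of opposite lactations. Probe 2, of which the files place 22 bases at chr13:61470474-61470495, gave 3.21, 1.89, −1.90 and −3.41 in pairs 1 to 4. Probe 3 (chr13:61477805-61477864), toward the 5′ side of the gene, was well above background in 3 of 8 channels in either yield group and was not tested. Its ratios ran from −0.21 to 0.34, and at that brightness a ratio is not measurable.

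ASNS makes asparagine from aspartate and glutamine and is a textbook target of ATF4 when amino acids are short. Probe 1, whose ends lie 584 bases apart on the genome (chr4:15389949-15390532, minus strand) and so span a gap in a probe of 60 bases, had ratios of 2.57, 1.28, −1.32 and −1.77 in pairs 1 to 4. Its mean was 0.19 ± 2.08 (SD, n = 4). Probe 2 (chr4:15396413-15396472) had smaller ratios of the same signs, 1.40, 0.90, −0.99 and −1.68. The level of ASNS was 10.52, 10.98, 10.101 and 9.09 in the high-yield cows and 7.95, 9.69, 11.42 and 10.86 in the low-yield cows. The low-yield cow of pair 1 was the lowest and that of pair 3 the highest.

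CHAC1, which breaks down glutathione and is induced in the response, stood outside the pattern. Its single probe (chr10:36399249-36399308) had ratios of 0.48, 0.40, 0.54 and −1.02 in pairs 1 to 4, with a mean of 0.10 ± 0.75 (SD, n = 4). Pair 4 alone was below 0. Levels ranged from 6.49 in the low-yield cow of pair 1 to 8.0 in the low-yield cow of pair 4. Without pair 4 the difference between lactations changed sign, from −0.68 to 0.10, the only such change among the 10 genes over all alternatives run.

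PHGDH catalyses the first and committed step of serine synthesis and had the smallest ratios of the 3 enzymes. Its probe (chr3:25578436-25578495) gave 0.65, 1.02, −0.48 and −0.99 in pairs 1 to 4, with a mean of 0.05 ± 0.94 (SD, n = 4). The level was 11.02, 11.92, 10.43 and 10.86 in the high-yield cows and 10.37, 10.91, 10.91 and 11.86 in the low-yield cows. The highest cow was the high-yield cow of pair 2, and it lay close to the low-yield cow of pair 4.

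PSAT1, the aminotransferase of the second step, had ratios of 3.06, 1.32, −1.96 and −2.74 in pairs 1 to 4 at probe 1 (chr8:56644493-56644552), with a mean of −0.08 ± 2.74 (SD, n = 4). The level of PSAT1 was 13.07, 13.61, 11.48 and 10.89 in the high-yield cows and 10.004, 12.29, 13.44 and 13.63 in the low-yield cows. The high-yield cows of lactation II and the low-yield cows of lactation IV were the 4 highest, and the lowest of them lay 0.78 above the next cow. Probe 2 of PSAT1 (chr8:56632267-56632326) was much dimmer and gave 0.29, 0.33, −0.63 and −1.65. The probes thus shared the signs and differed in size, most in pair 1.

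PSPH, the phosphatase that releases serine in the last step, had the largest ratios of lactation IV. Probe 1 (chr25:29521856-29521915, minus strand) had ratios of 2.09 and 1.61 in lactation II and −3.49 and −3.85 in lactation IV, with a mean of −0.91 ± 3.20 (SD, n = 4). Probe 2 (chr25:29529049-29529108) had 0.98, 1.86, −3.14 and −3.09. Both probes were above 0 on all arrays of lactation II and below 0 on all of lactation IV. The lactation difference of probe 1, −5.52, had the third smallest p of all kept probes (limma adjusted p = 0.311), and that of probe 2, −4.53, the ninth (adjusted p = 0.496). The level of PSPH was 9.98, 12.85, 9.34 and 8.09 in the high-yield cows (pairs 1 to 4) and 7.89, 11.24, 12.83 and 11.94 in the low-yield cows. Unlike in PSAT1, both cows of pair 2 were above the high-yield cow of pair 1.

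SHMT2 splits serine into glycine and a one-carbon unit in mitochondria, and its 3 probes did not give one answer. Probe 1 (chr5:60719364-60719423, minus strand) had ratios of 0.59, 0.70, −0.36 and −0.47 in pairs 1 to 4, with a mean of 0.11 ± 0.62 (SD, n = 4). Probe 2 (chr5:60719171-60719230) gave −0.03, 0.19, −0.23 and −0.34. The third probe (chr5:60721551-60721695, with ends 145 bases apart) gave −0.12, −0.04, 0.04 and −0.13 and was the dimmest. The first alone has the pattern of the other genes, and averaged over its 3 probes the lactation difference of SHMT2 went from −1.06 to −0.46. Its level at probe 1 spanned only 9.31 to 10.18 over the 8 cows. DDIT3 and SHMT2 lie 300 kb apart on chromosome 5.

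MTHFD2, the next enzyme of the mitochondrial pathway, was dim, with 6 of 8 channels above background in either yield group. Its probe (chr11:10740063-10741551, with ends 1489 bases apart) gave 0.27, 0.46, −0.19 and −0.66 in pairs 1 to 4 and a mean of −0.03 ± 0.50 (SD, n = 4). The level ran from 6.37 in the low-yield cow of pair 2 to 7.34 in the low-yield cow of pair 4. It kept the pattern on the arrays with the high-yield cow in Cy3 but not on those with that cow in Cy5, where pair 3 was at 0.04, nor with the scanner's own processed signals, where pair 1 was at −0.32.

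**Figure D2:**
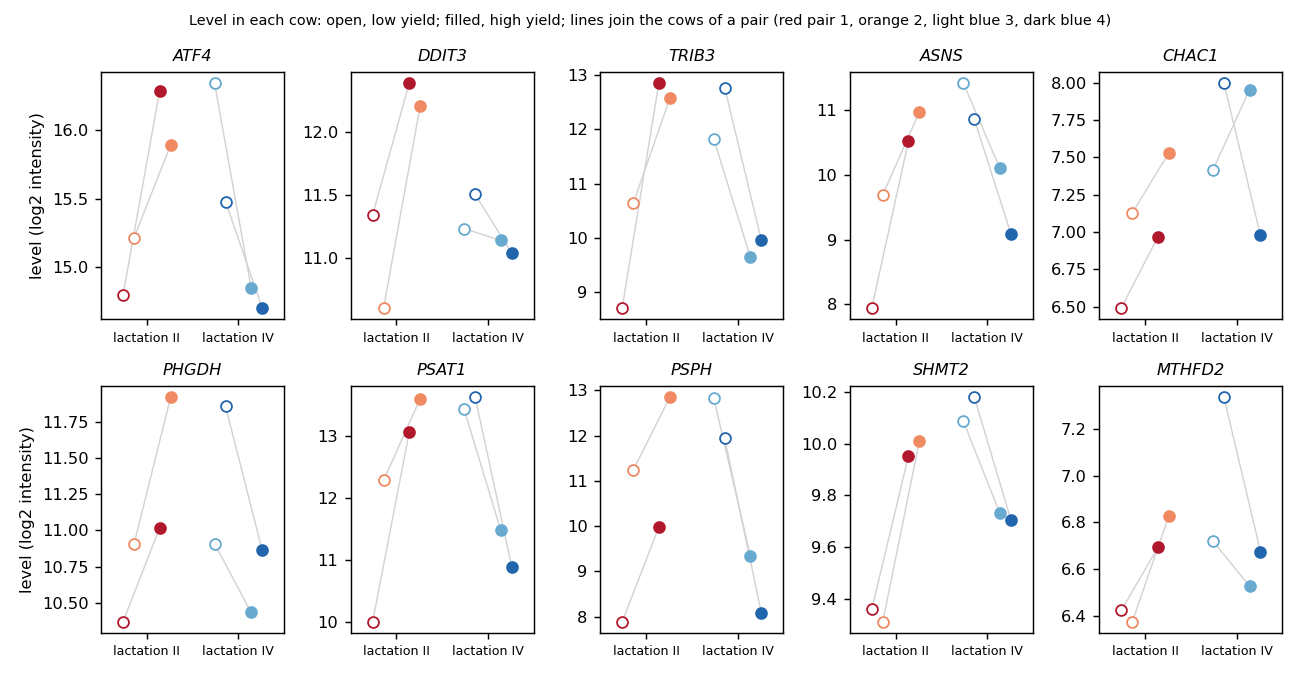
Level of each gene (log2 intensity, brightest probe) in each of the 8 cows, by lactation. Open circles are low-yield and filled circles high-yield cows, lines join the cows of a pair, and each panel has its own vertical scale that does not start at 0. Lines slope up in lactation II and down in lactation IV in every panel except CHAC1, where the line of pair 3 slopes up.

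Set in one view, the levels of 7 of the 10 genes were higher in the high-yield cows of lactation II and the low-yield cows of lactation IV than in all the other 4 cows, as were those of 1.88% of named genes. The 3 others were DDIT3, CHAC1 and PSPH. For PHGDH and MTHFD2 the gap was 0.003 and 0.019, so neighbouring cows did not differ. The low-yield cow of pair 1 was the lowest of the 8 in 6 genes (TRIB3, ASNS, CHAC1, PHGDH, PSAT1, PSPH). How many of all named genes were lowest in that cow was not counted, so this is not read as a trait of the 10 genes. For none of the 20 probes were the 4 cows of one yield all above the 4 of the other, against 1.21% of named genes with all high-yield cows above and 2.02% with all low-yield cows above. Without the low-yield cow of pair 1, the unpaired difference of 4 high-yield against 3 low-yield cows ran from −1.94 for PSPH to 0.58 for DDIT3, and none passed (limma adjusted p 0.759 to 0.997).

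The dye exchange gives a check on each ratio within a pair. With the brightest probe of each gene, all 40 array values of lactation II were above 0 and 36 of 40 of lactation IV were below 0. The 4 exceptions were both arrays of pair 3 for CHAC1 and the Cy5 array of pair 3 for DDIT3 (0.36) and MTHFD2 (0.04). Dimmer probes of ATF4, DDIT3, TRIB3 and SHMT2 also had array values of the other sign. The array values are repeats of the same cow pairs in genes that moved together, so they are not separate replicates. Their share over all named genes was not counted. Over all 20 probes, the 2 arrays of a pair had the same sign for 18 and 17 probes in lactation II (pairs 1 and 2) and for 15 and 17 in lactation IV (pairs 3 and 4). The same share over the whole array was not counted. TRIB3 probe 1 gave 3.62 and 4.65 on the arrays of pair 1 and −2.43 and −1.93 on those of pair 3, so that its 2 dye orientations differed by less than its pairs. For PHGDH in pair 3 the arrays gave −0.06 and −0.89, and for ASNS probe 1 in pair 2 they gave 1.98 and 0.58.

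**Figure D3:**
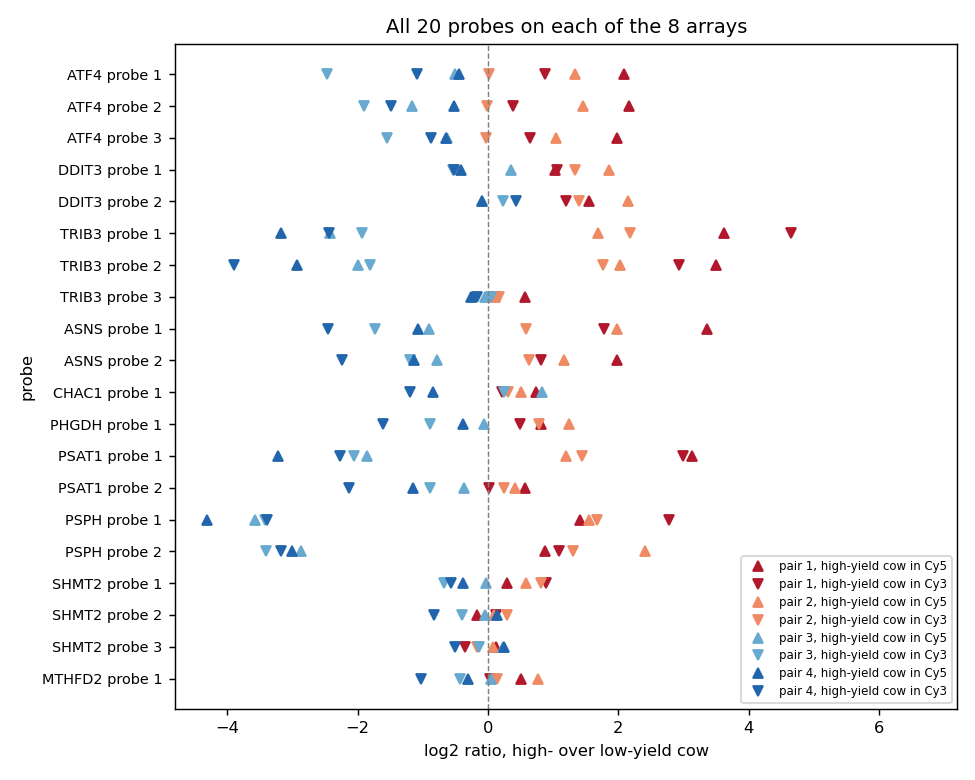
Log2 ratio of the high- over the low-yield cow (horizontal axis) of each of the 20 probes (vertical axis) on each of the 8 arrays. Upward triangles are arrays with the high-yield cow in Cy5 and downward triangles those with it in Cy3, and colours mark the pair. Red and orange (lactation II) lie right of blue (lactation IV) except for CHAC1, MTHFD2 and SHMT2 probes 2 and 3. The third probe of TRIB3 and all probes of SHMT2 stay within 1 of 0.

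The difference of the ratio between lactations (IV minus II) was below 0 for all 10 genes, as it was for 47.7% of named genes, with a median of −1.90 against 0.03. It was −5.53 for TRIB3, −5.52 for PSPH, −4.54 for PSAT1, −3.47 for ASNS and −2.20 for ATF4. From the most negative difference, TRIB3 was 7th, PSPH 8th, PSAT1 25th, ASNS 73rd and ATF4 250th of 12353 genes. DDIT3 (−1.60), PHGDH (−1.57), SHMT2 (−1.06), MTHFD2 (−0.79) and CHAC1 (−0.68) followed, at places 497, 527, 983, 1491 and 1790. Size thus differed widely among genes of one sign, with the serine enzymes PSAT1 and PSPH near the front and PHGDH well behind.

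**Figure D4:**
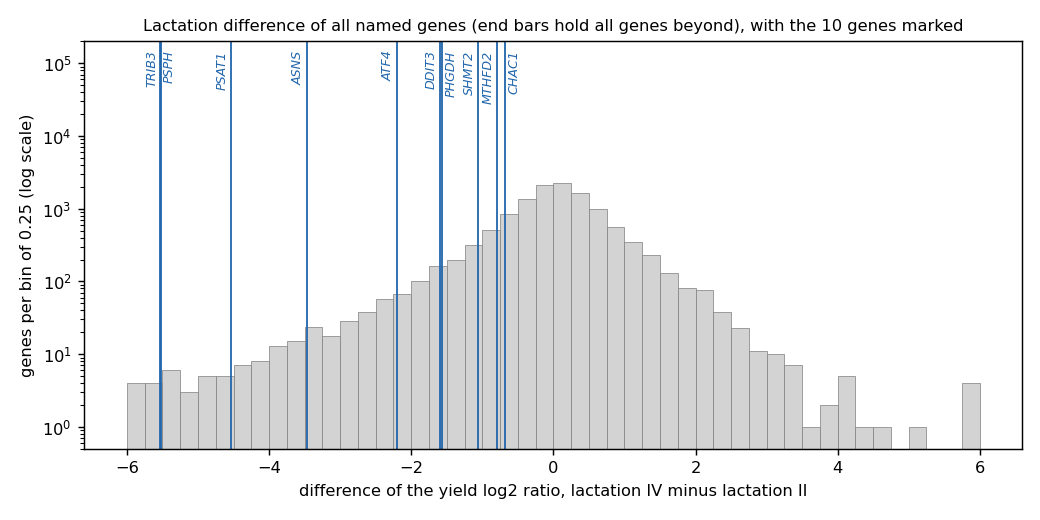
Number of named genes (vertical axis, log scale) by the difference of their yield log2 ratio between lactation IV and lactation II (horizontal axis, bins of 0.25), with vertical lines at the 10 genes. All 10 lines lie left of 0, from TRIB3 at −5.53 to CHAC1 at −0.68, while the median of all genes is 0.03.

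Over the 8 cows the levels of the 10 genes moved together to differing degrees. The 45 correlations between them ran from 0.02 (DDIT3 with CHAC1) to 0.95 (TRIB3 with PSAT1), with a median of 0.64. Without the low-yield cow of pair 1 they ran from −0.14 to 0.92, with a median of 0.58. The genes share the same arrays and scaling, so these values describe the 8 cows. Among named genes, PCK2, the mitochondrial enzyme that makes phosphoenolpyruvate, had the level most like that of ASNS (Pearson r = 0.98 over 8 cows, 0.96 over 7). PLA2G12A (0.97), CATHL5 (0.96), GPRC5B (0.96) and CACNA1G (0.95) came next for ASNS. For PHGDH the nearest were RNASE2 (0.96), NHLRC1 (0.94), ATG4A (0.92), DCTPP1 (0.92) and AMMECR1 (0.92). When the low-yield cow of pair 1 was left out, PCK2 stayed first for ASNS, and the other 4 places went to CCT7, DENR, DDX47 and PIGH. For PHGDH, NHLRC1 (0.96) was then first, RNASE2 (0.96) stayed among the 5, and MAGED1, OSR1 and BEX5 took the other places, BEX5 with r = −0.03 over all 8 cows.

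Other partners and targets of ATF4 showed the same reversal in part. Of the 32 measured of 40 listed, 18 (56.2%) were higher in both lactation II pairs and lower in both lactation IV pairs. The pattern was held by 8.83% of all named genes. A lower ratio in lactation IV was seen for 28 of the 32 (87.5%), against 47.7% of all named genes. The median difference was −1.50, against 0.03 for all named genes. None passed either test, and 18 had an unadjusted p under 0.05 for the difference, as did 9.17% of all named genes. The largest of the 18, named after their values were seen, were the amino acid transporters SLC1A5 (−4.52), SLC7A5 (−3.98) and SLC1A4 (−3.66), the proline enzyme PYCR1 (−3.92) and PCK2 (−3.76). Pair 2 was small for the transporters, at 0.72 for SLC1A5 and 0.09 for SLC7A5, but not for PCK2 (1.77). Of the aminoacyl-tRNA synthetases, which charge tRNAs with amino acids, GARS1 gave 1.97, 1.36, −1.96 and −1.41 and MARS1 1.13, 1.08, −1.23 and −1.07 in pairs 1 to 4. AARS1, IARS1, SARS1 and WARS1 also had the pattern. NARS1, TARS1 and LARS1 lacked it, with pair 2 at −0.35, −0.16 and −0.07. CEBPG, a dimer partner of ATF4, gave 1.36, 0.94, −1.03 and −0.93. The only gene of the list with the same sign in all pairs (3.12%, against 17.3% of all named genes) was NUPR1, a stress-induced nuclear protein. It gave 1.75, 0.64, 1.51 and 1.85 (mean 1.44 ± 0.55, SD, n = 4, limma adjusted p = 0.730). ATF3, itself a stress-induced factor of the same family, ran otherwise, at −1.67, 1.20, 1.01 and 0.94.

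The genes that control eIF2, and so the translation of ATF4, did not share the pattern as a list. Of the 15 measured of 17, 2 had it (13.3%, against 8.83% of all named genes), EIF2S2 (0.99, 0.33, −1.33 and −0.67) and DNAJC3 (1.54, 0.25, −0.48 and −0.28). The median difference of the list between lactations was −0.11. Of the 15, 3 (20%) had the same sign in all 4 pairs, as did 17.3% of all named genes. They were EIF2B5 (0.15 ± 0.08, SD, n = 4), a subunit of the eIF2 exchange factor, EIF2S1 (−0.34 ± 0.32), the eIF2 subunit that is phosphorylated, and IMPACT (−0.41 ± 0.29), an inhibitor of the kinase GCN2. The kinase EIF2AK3 (PERK) gave 0.00, −0.64, −1.08 and −0.53. None passed the tests, and the phosphorylation of eIF2 is not measured by an RNA array.

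Among the folate and glycine enzymes outside the 10 genes, 6 of the 23 measured (26.1%) had the pattern, against 8.83% of all named genes, and the median difference was −0.09. Among them, ALDH1L2 and MTHFD1L, mitochondrial partners of SHMT2 and MTHFD2, gave 0.40, 1.0, −0.61 and −0.73, and 0.08, 0.45, −0.61 and −0.23. MTHFD2L, a mitochondrial relative of MTHFD2, lacked the pattern, at −0.15, −0.04, 0.26 and −0.23. Of the mitochondrial glycine enzymes, AMT and GCSH lacked it too, while DLD had it. Of the cytosolic enzymes, ALDH1L1 also had the pattern, at 4.82, 0.31, −0.18 and −1.03, while SHMT1 (mean −0.23 ± 0.17, SD, n = 4) and MTHFD1 (−0.39 ± 0.34) were lower in all 4 pairs. GLDC, which cleaves glycine (0.38 ± 0.26), and SDSL, a serine dehydratase-like protein (0.83 ± 0.87), were higher in all 4 pairs. Thus 4 of the 23 (17.4%) had the same sign in all 4 pairs, as did 17.3% of all named genes. None of the 23 passed the tests.

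**Figure D5:**
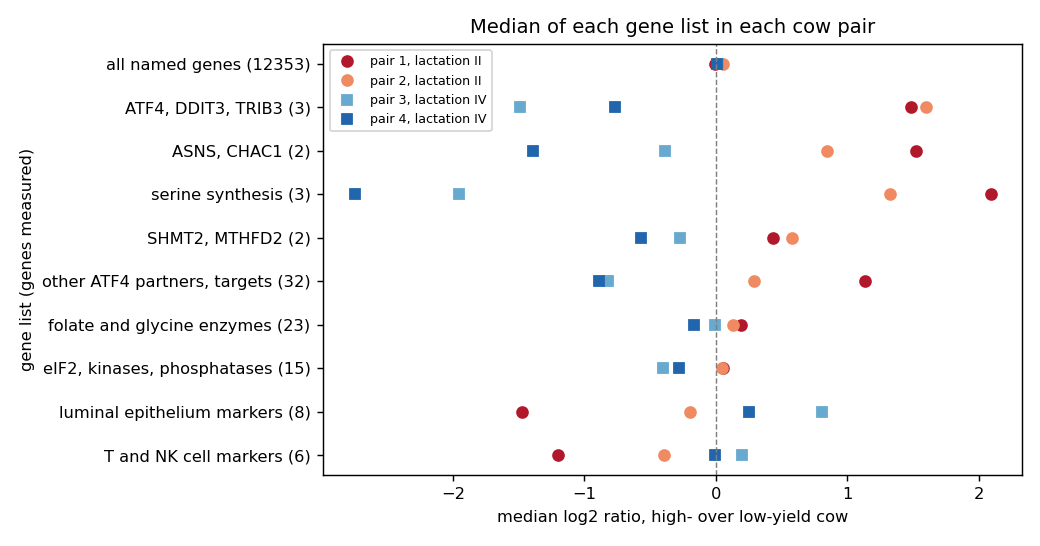
Median log2 ratio of the high- over the low-yield cow (horizontal axis) in each pair for the lists on the vertical axis, with the number of genes measured in brackets. Circles are lactation II and squares lactation IV. The serine synthesis genes run from 2.09 to −2.74, and the eIF2 list runs only from 0.06 to −0.40. The median of the luminal list lies on the side of 0 opposite to the serine synthesis genes in all 4 pairs. That of the T and NK cell list does so in pairs 1 to 3. Of the marker lists only these are drawn. Single markers differ from the median of their list, with KRT19 above 0 in all 4 pairs and CD2 below 0 in pairs 2 to 4.

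Markers of cell types moved with some of the pairs. The milk secretory list had median ratios of 7.10, −1.07, −0.59 and −1.04 in pairs 1 to 4, so it was above 0 in pair 1 only, and 0 of its 9 genes had the pattern of the 10 genes. In pair 2, where the 10 genes were higher in the high-yield cow, all 9 milk genes were lower in it. The T and NK cell list had medians of −1.20, −0.39, 0.20 and −0.01, on the side of 0 opposite to the 10 genes in pairs 1 to 3 and near 0 in pair 4, and its summed level, as a mean per gene, was 8.93 to 9.74 in high-yield and 9.16 to 9.99 in low-yield cows, with CD3D, CD3E and CD3G detected. The luminal epithelium list (4 keratins, ELF5, EPCAM, CDH1, CLDN4) had medians of −1.47, −0.20, 0.80 and 0.25, with mean levels of 11.98 to 12.76 and 11.82 to 13.16. The opposite pattern, lower in both lactation II pairs and higher in both lactation IV pairs, was seen for 3 of 6 T and NK cell markers (CD3D, CD8A, NKG7) and 3 of 8 luminal markers (CDH1, EPCAM, KRT7), against 7.14% of all named genes. The 4 erythrocyte markers measured, haemoglobins among them, were higher in the high-yield cow of every pair, as were 9.62% of all named genes. Mean levels of these markers were 7.12 to 8.98 in high-yield and 6.42 to 7.11 in low-yield cows. Of the 6 macrophage markers, 1 had the pattern of the 10 genes (CD163), and none of the adipocyte, fibroblast, endothelial, myoepithelial, neutrophil or B and plasma cell markers did. The part of these cell types in the ratios of the 10 genes was not tested.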

How the data were processed

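RNA of 8 cows was labelled and hybridised to 8 two-colour Agilent bovine arrays (design 023647). The scanner files hold mean spot and median local background intensity per dye, read out by the Feature Extraction software (10.10.1.1), per the file headers, with flags for outlier spots and brightness, processed intensities and a deposited log10 ratio of Cy5 over Cy3. Besides these, the authors deposited log2 ratios per array, of high- over low-yield cow as set against the scanner values; how they were made is not given in the sources used here.

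Here background was corrected by normexp (offset 50, noise from the 153 negative control spots), a choice carried over from earlier work on these arrays, and dyes by loess within arrays, in limma 3.58.1 (R 4.3.3). Outlier spots were left out, spots of a probe averaged, and the 2 arrays of a pair turned to high over low and averaged. Probes were kept with at least 6 of 8 channels above background in either yield group. The 4 pairs were tested with lmFit and eBayes, Benjamini-Hochberg adjusted at 0.05. A gene is its brightest kept probe. Probes were named from accession, gene number or symbol through RefSeq. Pairs come from separate cows. The number of cow pairs limits the precision. From each pathway list, genes with one sign in 4 of 4 pairs were named. Genes, lists and tests were chosen with earlier results of these data known. The scripts were tested on simulated data. A search of promoters for the ATF4 element was not run.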

Additional observations from a re-analysis of the deposited data

Results flagged for a closer look

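For 9 of the 10 genes, at the brightest probe, the ratio of the high- over the low-yield cow differed between lactation II and lactation IV. Both lactation II pairs were above 0 and both lactation IV pairs below 0, as in 8.83% of all named genes. By probe, 15 of the 19 tested had this pattern, against 7.83% of all kept probes. The difference, lactation IV minus II, was −2.20 for ATF4, −1.60 for DDIT3, −5.53 for TRIB3, −3.47 for ASNS and −1.57 for PHGDH. It was −4.54 for PSAT1, −5.52 for PSPH, −1.06 for SHMT2 and −0.79 for MTHFD2. The difference itself was tested with limma and did not pass (adjusted p 0.311 to 0.641), and lactation and slide cannot be told apart.

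In 2 of 60 groups of 4 values 1 value stood far from the others, and chance gives about 1 in 20. The CHAC1 ratio of pair 4 was −1.02, with 0.40 to 0.54 in the other pairs. The level of PSAT1 probe 2 in the high-yield cow of pair 2 was 7.04, with 6.49 to 6.58 in the other high-yield cows.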

How the results depend on the processing

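The call of 0 probes for yield held under all 14 alternatives that refit the whole array, with 919 to 5098 probes at an unadjusted p under 0.05. The call of 0 for the lactation difference held under all its alternatives but one, and leaving out one pair gave 0 to 179 probes, the 179 without pair 2. The count of genes with the pattern ran from 6 (median centring) to 10 (without pair 3), with 8 on the scanner's processed signals and 7 on arrays with the high-yield cow in Cy5. With a pair left out the pattern needs only 3 signs, and CHAC1 lacked it in pair 3 alone, so the count of 10 shows no added stability. Of 149 recomputed mean yield ratios, 40 changed sign and none moved by more than its SD over the 4 pairs, which the reversal between lactations itself widens. Keeping dim probes, requiring signal above background in all channels or adding slide as a term leaves the ratios of each gene as they were. The values of these settings, also those of the lactation difference, could therefore not change. Of 139 recomputed lactation differences, 1 changed sign, CHAC1 without pair 4 (0.10), and 13 moved by more than the spread within lactations, all with the sign kept; the cause was not tested. In the authors' deposited table the first array of pairs 2 and 3 matched the scanner ratios poorly, with r of 0.334 and 0.374 against 0.859 to 0.948 elsewhere. The slopes on the scanner ratios were 0.0819 and 0.0852 against 0.632 to 0.805 elsewhere, and the cause was not tested. Ratios of dim probes (TRIB3 probe 3, MTHFD2, SHMT2 probe 3) are limited by signal over background.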
